A study of Mus musculus with 12 samples.

Results

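The mRNA bound to tagged ribosomes of sensory neurons was compared with the total RNA of the same cultures after infection with a virus carrying a short hairpin RNA against Larp1. The cells were cultured adult mouse dorsal root ganglion neurons of genotype RPL22HA+/+;Advillin-Cre+, in which the Cre enzyme made in sensory neurons switches on a hemagglutinin (HA) tag on the ribosomal protein Rpl22. All groups were labelled Preconditioned, the usual name for neurons from ganglia whose peripheral nerve was injured before culture, so no uninjured group enters. AAV-shLarp1 IP, the RNA pulled down with an anti-HA antibody, was set against AAV-shLarp1 input, with 3 columns each of 12 in the deposited count table. The same pair of a control virus, called AAV-shControl in the input labels and AAV-Control in the IP labels, served as a reference and shared no column with it. Genes with 20 or more counts summed over the 3 shLarp1 input columns were used, which were 2623 of 15391 genes. The same minimum gave 2626 genes in the control pair, and 2413 genes passed in both.

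In a RiboTag experiment the tagged ribosome carries the mRNA it is translating into the pull-down, so mRNA of the Cre-expressing cells is enriched over the input, which holds RNA of all cells in the dish. A dorsal root ganglion holds cell bodies of touch, pain and position sensing neurons, each wrapped by satellite glia, together with Schwann cells, fibroblasts and macrophages. LARP1 is an RNA-binding protein that controls mRNAs beginning with a 5′ terminal oligopyrimidine tract, which encode ribosomal proteins and many translation factors, downstream of the mTOR kinase. Peripheral sensory neurons regrow their axons after nerve injury, and a prior injury is known to speed that growth.

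Total counts were 3176458 to 3177552 in the shLarp1 IP columns and 759527 to 760140 in the input columns, and the control columns held 3126591 to 3128368 and 564095 to 564625. Within each group the totals differed by 0.0344% to 0.0940%, and a chi-square test of the columns gave an unadjusted p under 0.05 in 6.98% to 7.62% of genes with 30 or more counts. Columns this alike cannot be read as separate cultures, and the labels name none, so the 3 columns were summed and each group was counted as 1 sample. No p-value is given. Whether input and IP reads were assigned to the same set of transcripts is not stated in the sources used here, and every ratio below takes it that they were. The 3802 genes with no count in either virus's input held 13.7% of the shLarp1 IP counts. Whether a difference in assignment set any of the ratios was not tested. Each enrichment is the log2 ratio of IP to input counts, scaled by TMM (which assumes that the bulk of the genes used do not differ), with an exact Clopper-Pearson 95% interval. The libraries carry no molecular identifiers, so reads are not independent molecules, and the intervals cover counting error only. Where all of that interval was more than 1.5-fold away from equality, the gene was called higher or lower in the IP.

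Larp1, the target of the hairpin, had 55, 49 and 45 counts in the shLarp1 IP columns and 147, 141 and 154 in the control IP columns, whose totals were nearly the same. The input held 3, 3 and 2 counts with shLarp1 and 5, 7 and 6 with the control virus, too few for Larp1 to pass the minimum. Its counts were therefore lower with the hairpin in each fraction, without overlap between the columns. Since the columns of a group cannot be read as separate cultures, this lack of overlap speaks to counting error only. Whether the decrease recurs between cultures was not tested. The share of all genes whose columns stay apart between viruses was not counted. Rpl22, which carries the tag, had 2029, 2029 and 1981 IP counts and 275, 277 and 301 input counts, a log2 ratio of -0.07 (95% interval -0.18 to 0.03).

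The ratios of the 2623 genes fell into a low and a high mode. In steps of 0.5 on the log2 scale, 383 genes lay between 0 and 0.5 and 167 between -3 and -2.5, with 97 genes in the gap from -1.5 to -1. Of all genes, 621 (23.7%) were called higher in the IP and 891 (34%) were called lower, and the median ratio was 0.07. On total counts alone, without TMM, 1316 were called higher and 721 lower, and TMM over every gene deposited gave 186 and 1245, because these scalings moved all ratios by 0.83 and -0.85. Distances between genes and lists within the pair are untouched by that choice, so each list is also given against the 79 ribosomal protein genes, whose median ratio was -0.12. A list median between -0.83 and 0.85 changes sign under one of the scalings.

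**Figure D1:**
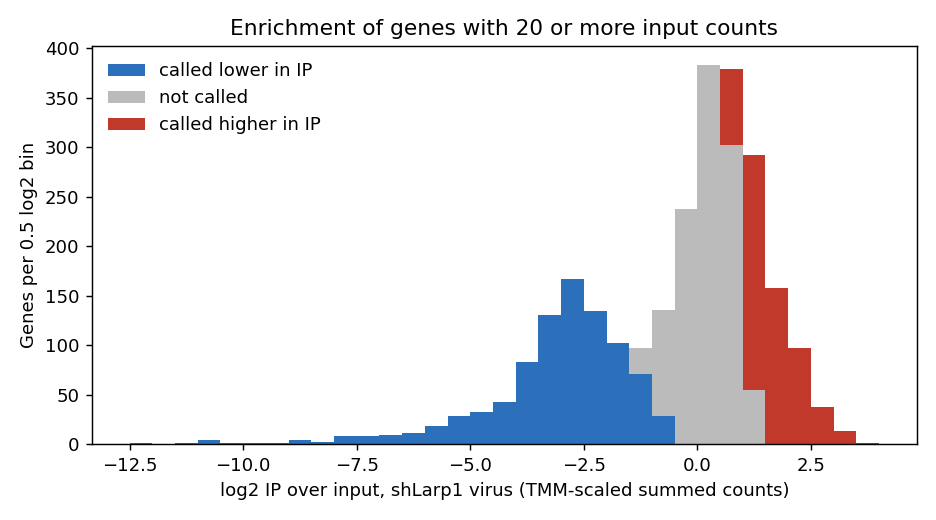
Number of genes (y axis) per 0.5-wide bin of log2 IP over input with the shLarp1 virus (x axis, TMM-scaled summed counts), for the 2623 genes with 20 or more input counts. Colours give the 891 genes called lower, the 621 called higher and the rest; the high mode peaks at 383 genes between 0 and 0.5, the low mode at 167 between -3 and -2.5.

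Genes of neuronal structure and identity headed the enrichment. Tubb3, the neuron-specific beta-tubulin, had 4507, 4474 and 4471 counts in the IP columns and 56, 47 and 59 in the input columns. Its scaled ratio was 11.1-fold (log2 3.48, interval 3.25 to 3.71). Prph, the intermediate filament peripherin of peripheral neurons, had 1975, 1901 and 1917 IP counts against 26, 27 and 28 (3.26, interval 2.95 to 3.60). Every IP column lay far above every input column for both genes, after scaling too, as the columns of the 2 fractions did not overlap in 2242 of the 2623 genes (85.5%). Nefl, the light neurofilament, had 2185, 2152 and 2172 IP counts against 30, 31 and 39 (3.13, interval 2.84 to 3.43). Its interval overlapped those of Prph, Nefm (3.23) and Nefh (3.21), the medium and heavy neurofilaments, so these 4 filament genes cannot be ordered.

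Ret, the receptor subunit for glial-derived neurotrophic factors on nonpeptidergic neurons, missed the minimum by 1 count, with 7, 4 and 8 in input. Its 566, 577 and 570 IP counts put it at 3.60 (interval 2.95 to 4.33). Avil, advillin itself, whose promoter drives the Cre, sat on the minimum at 9, 4 and 7 input counts. With 318, 330 and 322 IP counts it reached 2.70 (interval 2.07 to 3.42). Of the 4 genes given as neuronal markers, Tubb3, Nefl and Prph were thus among the genes used, all called higher, and Ret was high as well.

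Of 28 genes of neuronal structure and identity, 11 passed the input minimum and 17 had 1 to 19 input counts. All 11 were called higher under every scaling tried, against 23.7% of all genes, with a median of 2.70, which is 2.82 above the ribosomal protein genes. The lower end was formed by Stmn2 (2.11) and Stmn3 (1.98), stathmins that bind tubulin, by Gap43 (2.36), a growth cone protein, and by Uchl1 (2.53, interval 2.44 to 2.63), an abundant neuronal ubiquitin hydrolase. The interval of Stmn3, 1.86 to 2.11, lay wholly below that of Tubb3, so the neuronal genes differed among themselves beyond counting error. Summed over all 28 genes, with no minimum, the list took 1.33% of shLarp1 IP counts and 0.133% of input counts, a scaled log2 ratio of 2.49 (interval 2.44 to 2.54). Fewer neurons in the dish and less RNA per neuron cannot be told apart in such bulk input.

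**Figure D2:**
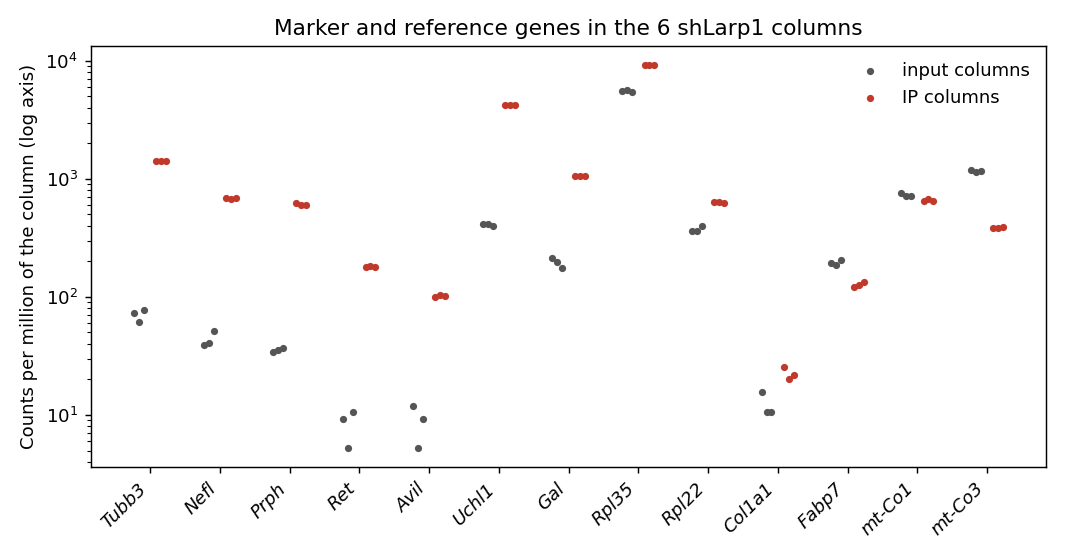
CPM of each column (y axis, log scale) for neuronal, ribosomal, fibroblast, glial and mitochondrial genes (x axis) in the 3 input columns and the 3 IP columns of the shLarp1 virus, divided by the column total without TMM. The IP columns of Tubb3, Nefl, Prph, Ret, Avil, Uchl1 and Gal lie above the input columns, and those of mt-Co3 below. The IP columns of Col1a1 also lie above its input columns on this scale, by less than for the neuronal genes.

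The axonal cytoskeleton and the transport and release machinery followed the marker genes. All 14 tubulin and filament genes that passed were called higher (median 2.54), from Tubb3 down to Tubb6 (1.43) and Vim (1.38), an intermediate filament that glia and fibroblasts make as well. Of all genes 23.7% were called higher, and under TMM over all genes 12 of these 14 were. The lists here and below are not separate, and a shared gene was counted in each. Tubb3, Nefl, Nefm, Nefh and Prph are also in the list of neuronal structure and identity. Tubb2b (2.57), Tubb5 (2.42) and Tuba1a (2.24) are subunits of the microtubules that fill axons. Of 12 motor and adaptor genes, 9 were called higher and 3 were not called, and 7 were higher under TMM over all genes. The kinesin light chain Klc1 (3.05, interval 2.50 to 3.66) and the synaptic vesicle kinesin Kif1a (2.66) led this list, and the dynein intermediate chain Dync1i2 (0.07, interval -0.20 to 0.34) had the median of all genes inside its interval. The 9 genes of vesicle release were all called higher (median 2.01), and 6 of them under TMM over all genes. Among them were Syt4 (3.21), a synaptotagmin, with 869, 818 and 868 IP counts against 12, 13 and 12, and Syp (2.01), the vesicle membrane protein synaptophysin. Of 30 ion channel genes, 7 had no input count and 22 had 1 to 19, so these were not measured gene by gene at this input depth. Summed over all 30 genes, with no minimum, the list had 3992 IP and 110 input counts. Its scaled log2 ratio was 2.28 (interval 2.01 to 2.57). Trpv2, the only channel gene that passed, was not called (0.65, interval 0.05 to 1.32).

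Peptides stored in dense-core vesicles were called higher in 8 of 8 genes, against 23.7% of all genes, with a median of 2.05. Under TMM over all genes 6 of the 8 were called higher. Vgf, a granin precursor, had 987, 1021 and 995 IP counts against 21, 13 and 20 in input (2.90, interval 2.51 to 3.32). Gal, the peptide galanin, which injured sensory neurons make, had 3376, 3355 and 3346 against 163, 151 and 134 (1.59, interval 1.46 to 1.73). Calca, which encodes the pain-fibre peptide CGRP, had 1952, 2033 and 1917 against 84, 84 and 81 (1.67, interval 1.49 to 1.86). The ranges of IP and input columns stayed apart after scaling in all 3 genes, and the interval of Vgf lay above those of Gal and Calca.

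Genes of sensory neuron subtypes were more mixed. Of 29 in the table, 7 passed, 5 of them called higher, against 23.7% of all genes. Calca and Calcb were counted among the peptide genes as well. TMM over all genes left 1 higher and 2 lower. Ntrk3, the neurotrophin-3 receptor of position-sensing neurons, was called lower, with 23, 12 and 18 IP counts against 16, 16 and 12 input counts (-2.63, interval -3.23 to -2.02). Nppb, the itch peptide precursor, was not called (-0.59, interval -1.15 to 0.00).

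Regeneration-associated genes, which neurons switch on after axon injury, were called higher in 14 of the 18 that passed, with a median of 1.94. That compares with 23.7% of all genes, and TMM over all genes gave 11 higher and 4 lower. Of the 14, Gal, Npy, Adcyap1, Nts, Gap43 and Tubb6 were already counted in the lists above. Sprr1a, a small proline-rich protein induced by nerve injury, had the highest ratio of all 2623 genes (3.51, interval 3.14 to 3.91, from 5008 IP and 59 input counts). Gadd45a (2.45), a stress response gene, Jun (2.29), an injury-induced transcription factor, and Hspb1 (2.45), a small heat shock protein, lay in the same range. Stat3, a signal transducer of injury cytokines, and Timp1, a secreted protease inhibitor also made by fibroblasts, were called lower (-0.92 and -0.74), Stat3 no longer so without input column 3 (-0.85). Lgals1, a lectin, was not called (-0.30, interval -0.33 to -0.28), and with the most input counts of the list, 16742, it held the ratio of the summed list to 0.14.

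Markers of other cell types lay near the middle of all genes. The 25 Schwann cell and satellite glia genes together took 0.212% of IP counts and 0.291% of input counts, none of them at 0 in either fraction. Cryab and Mag alone held 3955 and 1759 of the list's 6626 input counts. The summed shares therefore give no direction for the other glial genes. Of the 10 that passed, 2 were called higher, 3 lower and 5 were not called (median -0.01). These shares were near the 23.7% higher and 34% lower of all genes, so no direction is given for the list. Fabp7, a fatty acid carrier of satellite glia, had 383, 401 and 425 IP counts against 148, 143 and 157 and was called lower (-1.47, interval -1.62 to -1.31), as was Cryab (-1.42), a small heat shock protein, while the myelin protein gene Pmp22 (2.03, interval 1.67 to 2.41) and the calcium-binding S100b (1.29) were called higher. Mag, a myelin adhesion protein, had 41, 35 and 40 IP counts against 601, 549 and 609 (-6.82), which sets it far below the other glial genes and among the genes of the low mode.

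Of 15 fibroblast and matrix genes that passed, 3 were called higher, 3 lower and 9 were not called. Of all genes 23.7% were called higher and 34% lower. Col1a1, the main collagen chain, had 81, 64 and 69 IP counts against 12, 8 and 8 (0.04, interval -0.54 to 0.66), and its columns were close after scaling. Fn1 (-2.26) and Sparc (-2.02), matrix proteins, were called lower, and Apod (2.34) and Gsn (2.39), a lipid carrier and an actin-severing protein, were called higher. The macrophage genes Lyz2, Fcer1g and Tyrobp were not called, and the 18 macrophage genes held 0.0284% of IP counts and 0.0109% of input counts. No endothelial or mural gene reached 20 input counts. How far RNA of these cells enters the IP or dilutes the input was not tested.

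The input level of a gene moved with its ratio. Input is the denominator of the ratio, so part of this is built in, and a comparison at like input mostly ranks IP counts. Genes with 20 to 49 input counts had a median ratio of 0.67, those with 100 to under 300 of -0.05 and those with 1000 or more of -2.64. Compared with genes of the same input range, all 11 neuronal genes lay above the median, by 2.64 in the median, and so did all 8 peptide genes, by 1.89. That was not particular to them: 44 of 46 large-subunit and 30 of 33 small-subunit ribosomal protein genes, which have high input counts, lay above it by 2.41 and 2.35, and 70 of 73 nuclear respiratory chain genes by 1.42. Of the mitochondrially encoded mRNAs 6 of 13 lay above it.

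Protein folding, sugar breakdown and protein degradation in the cytosol were also enriched. Of 15 cytosolic chaperone genes 13 were called higher (median 2.14), against 23.7% of all genes. Under TMM over all genes 10 were called higher and 2 lower. The list was led by the inducible heat shock protein gene Hsp90aa1 (3.04, interval 2.71 to 3.38). Hspa8, the constitutive Hsp70 chaperone, had 16229, 16082 and 16253 IP counts against 445, 427 and 423 in input (2.33, interval 2.25 to 2.41). Cct6a, a chaperonin subunit, was not called at -0.48, although Cct8, Cct5 and Cct7 of the same ring were called higher (2.67, 2.14 and 1.96).

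In glycolysis, 12 of 13 genes were called higher (median 1.70), against 23.7% of all genes, and 5 under TMM over all genes. Eno2, the neuronal enolase, stood at 3.11 and Eno1, the enolase of most cells, at 1.30, with intervals that did not overlap (2.50 to 3.79 and 1.00 to 1.60). Aldoa, aldolase, had 2509, 2522 and 2530 IP counts against 56, 78 and 71 (2.31). Slc2a3, the neuronal glucose transporter, went the other way, with 179, 150 and 158 IP counts against 251, 282 and 274 (-3.63, interval -3.79 to -3.46). Of 28 proteasome subunits 23 were called higher (median 1.27), against the same 23.7%, and 2 lower, Psmc2 (-0.84) and Psmd11 (-1.12). Psmc2 was no longer called without input column 1 (-0.81) or 2 (-0.74), and Psmd11 without input column 3 (-0.84). The proteasome count rested on the scaling: 4 were called higher under TMM over all genes and 26 on total counts.

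Mitochondrially encoded mRNAs were low in the IP, and most nuclear genes for mitochondrial proteins were not called. Translation of the mRNAs encoded in mitochondrial DNA takes place on mitochondrial ribosomes, which carry no Rpl22. All 13 of these mRNAs were called lower in the IP, against 34% of all genes, with a median of -2.19, which is 2.07 below the ribosomal protein genes. On total counts 10 of the 13 were called lower. Their input counts ran from 38 to 2659, and 62.0% of all genes with 1000 or more input counts were called lower. Why these mRNAs were low was not tested. mt-Co3, a cytochrome oxidase subunit, had 1225, 1212 and 1232 IP counts against 900, 874 and 885 in input (-2.43, interval -2.51 to -2.36). mt-Co1, from the same complex, had 2069, 2142 and 2056 against 573, 546 and 541 (-0.98, interval -1.06 to -0.90). The IP columns lay below the input columns for both after scaling, and the intervals of the 2 genes were apart. mt-Nd3 fell to 3, 0 and 4 IP counts against 139, 149 and 152 (-8.87).

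Of 73 nuclear genes for the same respiratory chain, 29 were called higher, 1 lower and 43 were not called (median 0.59). Of all genes 23.7% were called higher and 34% lower. The ATP synthase subunits Atp5b (2.20) and Atp5a1 (2.14) were highest, and Atp5g2, one of the paralogs for the membrane ring subunit, was lowest (-1.62). Mitochondrial ribosomal proteins, made in the cytosol, were called higher in 6 and lower in 6 of 60, with a median of 0.38. Mrpl13 (-3.67) and Mrpl9 (-2.89) were lowest in that list. The nuclear respiratory list took any sign the scaling gave it, with 68 higher on total counts and 12 lower under TMM over all genes, whereas no mitochondrially encoded gene was called higher under any scaling.

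**Figure D3:**
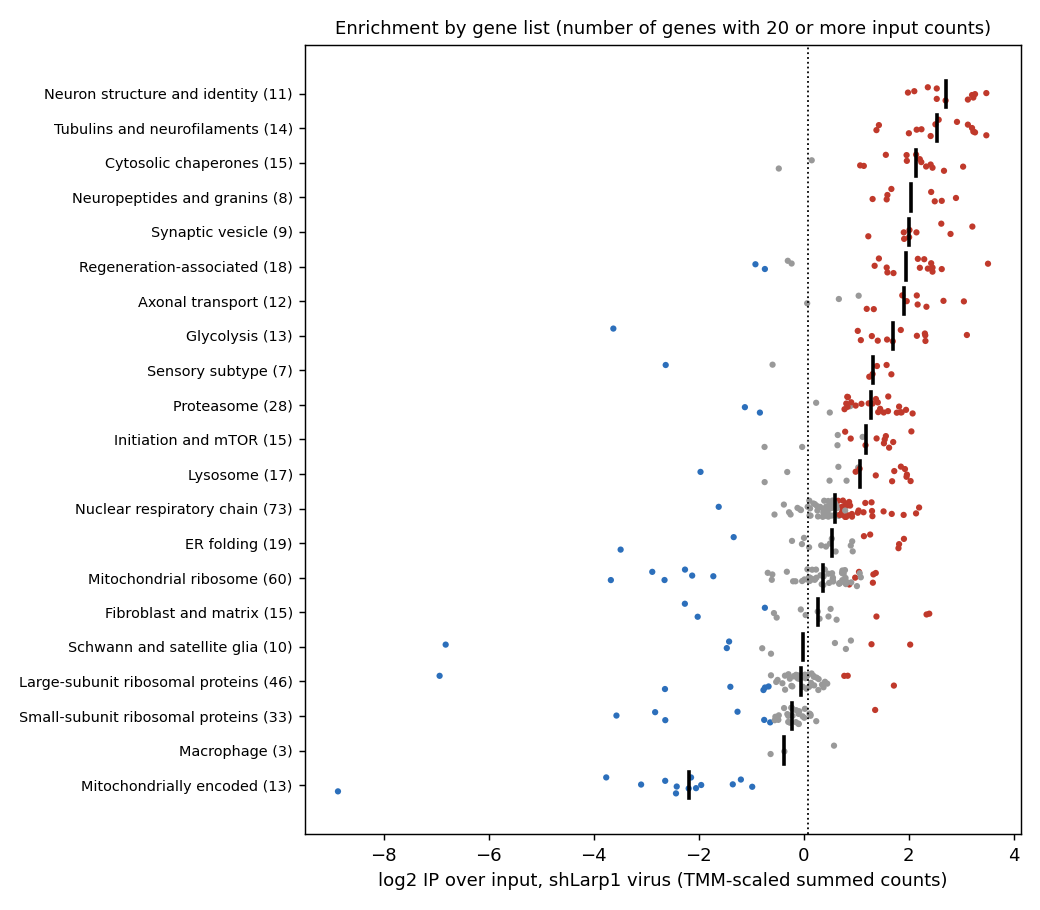
Log2 IP over input with the shLarp1 virus (x axis) for the genes of each list that had 20 or more input counts (points; number in parentheses), with the list median as a black bar and the median of all 2623 genes as a dotted line. Red points were called higher, blue lower and grey not called; the lists of neuronal structure, tubulins, peptides and vesicle release lie at the right with medians of 2.01 to 2.70, ribosomal proteins near 0, and all 13 mitochondrially encoded mRNAs at the left.

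Cytosolic ribosomal protein mRNAs, the classical targets of LARP1, lay close together at the middle of the distribution. Their 5′ ends are known for a C followed by a run of pyrimidines, shown here for Rpl35, Rpl38 and Rpl35a beside Tubb3. The windows run from 10 bases before to 20 bases after a RefSeq start (GRCm38.p6), and capitals mark the first run of at least 6 C or T that begins with C, searched on the transcribed strand. Of the RefSeq starts listed for Rpl35a the one with such a run is shown, and the others have none. Rpl35 is at chr2:39005112-39005141 on the minus strand, Rpl38 at chr11:114668570-114668599, Rpl35a at chr16:33056472-33056501 and Tubb3 at chr8:123411543-123411572, the last 3 on the plus strand.
Rpl35: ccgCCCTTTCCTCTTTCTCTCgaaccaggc
Rpl38: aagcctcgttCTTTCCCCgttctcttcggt
Rpl35a: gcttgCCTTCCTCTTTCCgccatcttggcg
Tubb3: gctgccgatcctccgcagcctgctgtccgc

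Rpl35, with the longest tract shown, had 29279, 29191 and 29057 IP counts against 4250, 4272 and 4179 (-0.11, interval -0.14 to -0.09). Rpl38 had 34918, 34831 and 35109 against 4078, 4022 and 4200 (0.19, interval 0.17 to 0.22). Both ratios lay inside 1.5-fold, in contrast to that of Tubb3. Counting a gene where any of its starts had it, such a tract stood in the window of 34 of 58 ribosomal protein genes with a RefSeq entry (58.6%), in 566 of 2084 of the genes used (27.2%) and in 6735 of 27025 of all entries (24.9%). Of 6 genes of neuronal structure and identity with an entry, 2 had such a tract (33.3%). These were Prph and Uchl1, both called higher (3.26 and 2.53), so the contrast with Tubb3 does not hold for every neuronal gene. Among the genes used, the median ratio was 0.11 with the tract and 0.10 without it. A missing run says only that these letters are not in that window, and deposited starts need not be the start used in neurons.

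Of the 79 ribosomal protein genes, 59 had a ratio between -0.5 and 0.5, and the quartiles were -0.39 and 0.12. Of all genes 23.7% were called higher and 34% lower. In the large subunit 3 of 46 were called higher and 6 lower, and in the small subunit 1 of 33 and 6. The higher ones were Rplp2 (1.72, interval 1.57 to 1.87), a protein of the ribosomal stalk, Rpl4 (0.84), Rpl5 (0.77) and Rps4l (1.36), a copy of Rps4x. The last 3 lost their call when single columns were left out. Rpl4 was at 0.80 and 0.77 without input columns 2 and 3, and Rps4l at 0.92 without input column 3. Rpl5 was at 0.76 and 0.74 without IP columns 2 and 3, and at 0.71 and 0.77 without input columns 1 and 3. On total counts 29 of the large and 14 of the small subunit were called higher, and under TMM over all genes 35 and 30 were called lower, so no direction is given for the family. Other mRNAs with known oligopyrimidine tracts were higher than the ribosomal proteins by 0.92 in the median. Of 21 such genes 10 were called higher, against 23.7% of all genes, among them the elongation factors Eef2 (1.56), Eef1a1 (1.23) and Eef1g (1.79), and 1 lower, Tpt1 (-1.07), the translationally controlled tumour protein. This count too followed the scaling, with 16 higher on total counts and 2 higher and 3 lower under TMM over all genes. The list rests on tracts known from elsewhere, and the RefSeq window of Eef2 held no such run by the rule above.

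A few ribosomal proteins stood far below the family. Rpl36 had 89, 89 and 67 IP counts against 1337, 1308 and 1380 (-6.94), Rps28 reached -3.57, and Rpl41 and Rps12 -2.64. These genes have near-identical processed copies in the genome, and how the authors' counting split such reads is not given in the sources used here. Rps13 had 4468, 4499 and 4467 IP counts against 1456, 1478 and 1387 (-1.26), while the 2 pseudogenes that carry its name held 18352 IP counts and 0 input counts. Summed with them, Rps13 came to -0.02 (interval -0.06 to 0.03), at the family's level. Rpl36 with its named pseudogene stayed at -6.47. Whether other copies take reads of these genes was not tested, and the single ratios of Rpl36, Rps28, Rps12, Rpl41 and Rpl12 (-1.40) are uncertain for that reason.

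The 891 genes called lower held 69.8% of the input counts and 12.7% of the IP counts. Whether input and IP reads of these genes were assigned alike was not tested. Among genes at or above the median of 84 input counts, the lowest ratio belonged to Rep15, a Rab15 effector, with 1, 3 and 1 IP counts against 955, 950 and 1012 (-12.09, interval -13.71 to -10.86). Lztr1, an adaptor for a ubiquitin ligase, had 92, 89 and 130 against 24334, 24239 and 24515 (-10.77, interval -10.94 to -10.61). Gm20594 and Lrrc17, a leucine-rich repeat protein, had no IP count against 997 and 637 input counts. If the 0 stands for no more than a floor of 3 counts over the group, and with the input as counted, they were at least 2477-fold and 1583-fold lower. Their 95% intervals, which include the counting error of a 0 and of the input, end nearer to equality, at log2 -10.97 and -10.33. Trpm2, an ion channel, Wdr12, a ribosome biogenesis factor, Hlcs, which attaches biotin to enzymes, and Rab33b, a Golgi GTPase, lay between -10.66 and -8.81.

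The genes with the most input counts, singled out after their values were seen, belonged to the same group. Ccdc62 alone had 82101 input and 19871 IP counts (-4.94), and Lztr1, Zfp410 (-4.29), Unc13d (-3.76), Matr3 (-7.39) and Fam193a (-4.52) followed. Ccdc62 is a coiled-coil protein, Zfp410 a zinc finger protein, Unc13d a vesicle priming factor of immune cells and Matr3 a nuclear matrix protein. Of 23 dividing-cell genes, 16 had 1 to 19 input counts and 1 had none. Of the 6 that passed, 3 were called lower, against 34% of all genes. These were Mcm10 (-4.05), Ccnb1 (-3.29) and Cenpf (-2.78), while Pcna (0.66), Mcm7 (-0.38) and Birc5 (-0.76) were not called. With so few genes no direction is given for the list. The called-higher genes made up 4.89% of the input counts and 21.7% of the IP counts.

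The input minimum left out 12768 genes. Of these 8035 had 1 to 19 input counts, and 4733 had none. The 3802 genes with no count in either virus's input held 13.7% of the shLarp1 IP counts. Among those with a RefSeq gene type, 48.3% were protein coding and 47.0% long non-coding, against 99.3% protein coding among the genes used. Gas5 and Zfas1, hosts of small nucleolar RNAs, had 13772 and 7542 IP counts and no input count in any column. Of 22 well-known long non-coding RNAs counted here, 21 were at 0 in the input, so no enrichment is given for them. Snhg11, the exception, was called lower (-2.70). At the border, the 66 genes with 20 input counts had a median ratio of 0.60 and the 62 genes with 19 a median of 1.21.

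The control virus gave a similar order of genes. Across the 2413 genes measured in both pairs, the log2 ratios correlated with a Pearson r of 0.96 and a Spearman rho of 0.94, as a description across genes, which are not replicates and share the libraries. Of the genes called higher, 344 were shared, 59.7% of the 576 with shLarp1 and 87.3% of the 394 with the control virus. Of those called lower, 703 were shared, 84.4% of 833 and 96.6% of 728, and no gene was called in opposite directions. Tubb3 was at 2.81, Prph at 3.19 and Nefl at 3.72 in the control pair, and their differences between viruses, 0.67, 0.07 and -0.59, were not called. Ret was at 3.54 in the control pair and Avil at 2.77.

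The difference in enrichment between viruses was called by the same size rule on the log2 ratio of ratios. With shLarp1, 47 genes (1.95%) were enriched more and 403 (16.7%) less, and 400 of the latter were already called lower in the shLarp1 IP. On total counts, which move all differences by 0.41, the split was 235 and 122. The 703 genes lower with both viruses had a median difference of -0.91 and the 344 higher with both 0.19, against 0.01 in the 79 ribosomal protein genes. The low mode thus lay lower with shLarp1 relative to the rest of the genes, at any scaling. Among the 12 ribosomal protein genes called lower the median difference was 0.03 and none was called, with a range from -0.53 (Rps19) to 0.20 (Rps13). Rps28 (-0.50) and Rpl41 (-0.46) also lay below 0, with intervals clear of it.

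**Figure D4:**
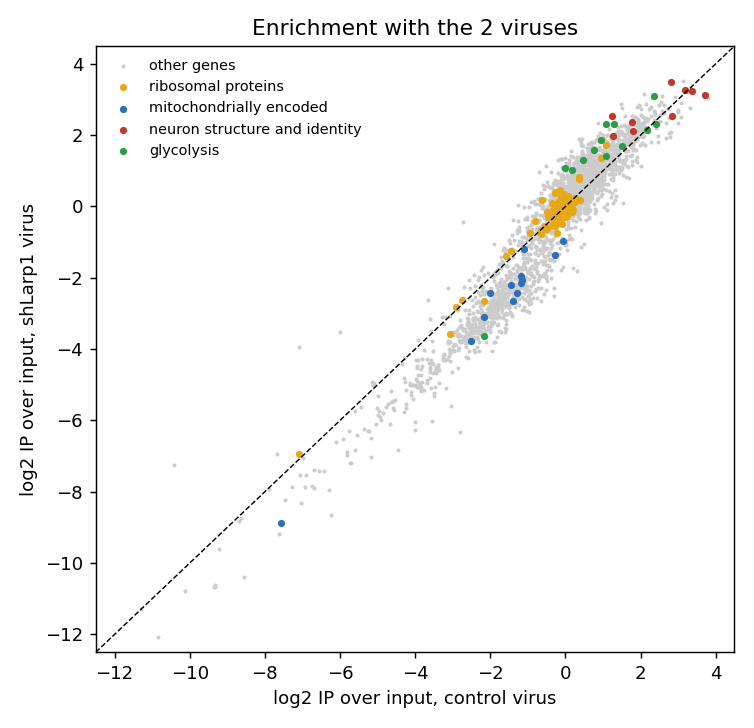
Log2 IP over input with the shLarp1 virus (y axis) against the control virus (x axis) for the 2413 genes with 20 or more input counts in both pairs, with 4 gene lists in colour and the line of equal values dashed; genes with no IP count are drawn at a floor of 3 counts. Most points of the low mode, mitochondrially encoded mRNAs included, lie below the line, and ribosomal proteins lie near it down to their lowest values.

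Among neuronal genes, Uchl1 alone of 9 differed by the size rule. Its IP counts were 13512, 13402 and 13433 with shLarp1 and 10276, 10199 and 10327 with the control virus, and its input counts were 314, 317 and 304 against 609, 562 and 601. The enrichment was 1.31 higher on the log2 scale (interval 1.19 to 1.42). These counts are as deposited, and the control input was the shallower of the 2 inputs. Spp1, osteopontin (1.09, or 0.93 and not called without shLarp1 input column 3), Anxa2, an annexin (1.30), and Apod (1.46) were also enriched more with shLarp1.

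Glycolysis genes had a median difference of 0.82, with 3 of 13 called more enriched (1.95% of all genes), 1 less (16.7% of all genes) and 9 not called. Gapdh had 5606, 5772 and 5950 IP and 373, 358 and 363 input counts with shLarp1, and 4420, 4428 and 4440 against 633, 621 and 550 with the control virus. Its difference was 1.10 (interval 0.99 to 1.21). Tpi1 (1.24) and Aldoa (1.01), neighbours in the pathway, were called too, and Slc2a3 was called in the other direction (-1.45). Of the 13 mitochondrially encoded mRNAs 8 were called less enriched, against 16.7% of all genes, with a median difference of -0.94. mt-Co3 had 1989, 2094 and 2021 IP counts with the control virus, which put its difference at -1.14 (interval -1.25 to -1.04). This list lay near the -0.91 of the low mode.

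The largest differences named by rank rested on few or uneven counts. Akap5, an anchoring protein for protein kinase A, had 18, 8 and 0 IP counts with shLarp1 and none with the control virus, so no size is given. 1700047I17Rik2 had 0, 220 and 0 input counts, all in 1 column, and Gm3839 had 91, 22 and 30 IP counts. These 2 unnamed gene models are therefore uncertain. On firmer counts, Hprt, the purine salvage enzyme, had 387, 396 and 397 IP counts against 16, 11 and 16 input counts with shLarp1, and 317, 291 and 287 against 28, 37 and 29 with the control virus (1.51, interval 0.98 to 2.05). Sat1, which acetylates polyamines, differed by 1.66, Mpdu1, a protein of sugar donor use in glycosylation, by 1.62, and Olfr2, an odorant receptor, by 2.25. Sdhd, a subunit of respiratory complex II (interval 0.75 to 2.24), was no longer called without input column 2 or 3 of shLarp1 (log2 difference 1.35 and 1.13) or column 1 of the control input (1.04).

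In the other direction, Zfp710, a zinc finger protein, had 6, 4 and 8 IP counts against 323, 332 and 321 input counts with shLarp1, and 17, 23 and 22 against 210, 206 and 210 with the control virus (-2.40, interval -3.16 to -1.64). Tirap (-2.54), an adaptor of Toll-like receptors, Fes (-3.43), a tyrosine kinase, Mfsd2b (-2.41), a lipid exporter, Neu3 (-2.33), a sialidase, and Pigl (-2.24), of GPI anchor synthesis, were also low-mode genes. Tmem131l (-2.18) and Ppp4r2 (-2.11), a phosphatase subunit, were called lower with shLarp1 and not with the control virus. Among LARP family and poly(A) genes, Pabpc1, the poly(A)-binding protein whose mRNA carries a tract, had 158, 149 and 147 IP counts against 25, 14 and 18 with shLarp1, and 308, 328 and 313 against 23, 13 and 17 with the control virus. Its difference was -1.17 (interval -1.73 to -0.61), with the IP columns of the 2 viruses apart and the input columns overlapping, and it was no longer called without shLarp1 input column 1 (-0.93) or without control columns 2 of the IP (-1.13) or 2 and 3 of the input (-0.97 and -1.14). Tpt1, with a tract as well, was lower in the IP with both viruses, less so with shLarp1 (-1.07 against -1.90, a difference of 0.83, interval 0.73 to 0.94).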

How the data were processed

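The RNA came from mouse sensory neurons in culture, as IP and input of cells infected with either virus. Per the labels' protocols, libraries came from a nanopore cDNA-PCR barcoding kit, and the text speaks of lysate of fresh ganglia although the source is cultured cells. The authors deposited estimated counts per gene. Per the submitters' processing notes the tools were minimap2 and Salmon and the builds GRCm39 and mm39; the sources used here give no versions, annotation release or use of strand.

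From these counts, the 3 columns of a group were summed, scaled by TMM (edgeR 4.0.16, R 4.3.3) over genes with 20 or more input counts, and compared by interval with a 1.5-fold threshold. For the difference between viruses 0.5 counts were added and the interval was a normal approximation on the log scale. Column models, run as alternatives, used edgeR's quasi-likelihood test and DESeq2 1.42.0 with Benjamini-Hochberg adjustment at 0.05. Other alternatives were total-count, upper-quartile and DESeq2 scaling, TMM over all genes, minimums of 1 and 50, a 2-fold threshold and leaving out each column; scaling to ribosomal proteins was chosen after seeing the data. The rules were tested on simulated data.

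Symbols and gene types came from RefSeq-based tables (13711 genes with a symbol, 1680 without). Genes named were Larp1, Rpl22, Avil and the given markers; the 12 highest and 12 lowest called genes at or above the median input count without column overlap; of each of 31 lists up to 6 members by input counts and all called members where these were few; and the 8 largest called differences in each direction. Other genes named were singled out after their values were seen: further list members, and the genes with the most input counts. The genes used and the lists were chosen with earlier results of these data known.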

Additional observations from a re-analysis of the deposited data

How the results depend on the processing

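The scaling, an input with a median of 84 counts per gene used, and 1 sample per group limit these results. Genes higher and lower in the shLarp1 IP numbered 621 and 891. Counts of higher genes were 1316 with total-count scaling, 1222 with upper-quartile scaling (lower: 752), 186 with TMM over all genes and 346 at 2-fold. Lower genes were 1530 at a minimum of 1 input count. For the difference between viruses, 47 more and 403 less enriched became 235 and 122 on total counts, 97 more on upper quartiles, 17 more with TMM over all genes, 9 and 117 at 2-fold, and 616 less at a minimum of 1. Leaving out each column in turn gave 560 to 611 higher, 868 to 894 lower, 37 to 49 more and 377 to 405 less enriched.

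The replicate numbers did not pair the columns, since their deviations correlated at -0.0147, -0.000554 and 0.111. With the number as a replicate block, edgeR's quasi-likelihood test called 917 genes higher and 981 lower, against 923 and 982 without the block, and DESeq2 843 and 987. These models treat the columns as replicates, which they may not be.

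Only the 249 genes named by rule were followed one by one, and some called ratios among them changed sign. Other called genes whose ratio is smaller than a shift change sign too and are not listed. On total counts the genes among the 249 that did so were Timp1 (0.0935), Rplp1 (0.0664), Rpl39 (0.16), Rpl29 (0.10), Rps19 (0.0806) and Fau (0.19), and on upper quartiles Rpl39 (0.0424) and Fau (0.0725). With TMM over all genes, and alike at a minimum of 1, they were Cox6c (-0.19), Cox6b1 (-0.15), Ndufa4 (-0.0275), Rpl5 (-0.0783), Rpl4 (-0.0128), Btf3 (-0.0497), Psmb3 (-0.0737), Psma7 (-0.0159), Psma2 (-0.0405) and Eif2s2 (-0.0616). By construction a scaling shifts every ratio alike, so these are genes with small ratios. Leaving out each column, the ratio of 1700047I17Rik2 ran from -4.09 to 2.10, positive without input column 2 of shLarp1, and its difference from -5.63 to 10.65, negative without input column 2 of the control. These 2 columns hold all its input counts. The difference of Sdhd was no longer called without any of 3 input columns (shLarp1 2 or 3, control 1).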

Other observations

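Further gene groups, outside the lists above, were described in the same way. Of all genes 23.7% were called higher in the shLarp1 IP, and TMM over all genes lowered each count below. Of 17 lysosome and vacuolar ATPase genes 10 were called higher (median 1.06), or 6 under that scaling, among them the proteases Ctsd (1.85) and Ctsb (1.68) and the membrane protein Lamp1 (1.96), while Ctsl, a protease of the same family, was called lower (-1.97, interval -2.02 to -1.91). In the endoplasmic reticulum, 5 of 19 genes were called higher, a share near that of all genes (2 higher and 5 lower under that scaling). They were the chaperones Hspa5 (1.91), Hsp90b1 (1.82), Calr (1.80), P4hb (1.27) and Canx (1.15). P4hb and Canx were no longer called without input column 1 (both 0.95), nor was Canx without input column 3 (1.12). Hyou1 (-1.33) and Rpn2 (-3.49), a subunit that helps attach sugars to proteins, were called lower.

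Integrated stress response genes were called higher in 4 of 7 (2 under that scaling): Atf4, its transcription factor (1.90), the tRNA ligases Nars (2.09) and Sars (1.74) and the amino acid transporter subunit Slc3a2 (1.66). Ddit3 (0.48) and Ppp1r15a (0.35), which act later in that response, were not called. Of 15 initiation factor and mTOR pathway genes 10 were called higher (14 on total counts, 1 higher and 2 lower under TMM over all genes), including the cap-binding protein Eif4e (1.56), the helicase Eif4a1 (1.63) and the mTOR activator Rheb (1.54), and the translation repressor Eif4ebp1 was not called (-0.75, interval -1.03 to -0.45).

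RNA-binding proteins of the nucleus spread over the whole range. Hnrnpc (2.30), Hnrnpab (2.27) and Ddx5 (1.66) were among 8 of 20 called higher (2 under TMM over all genes), and Snrnp70 (-4.59), Tra2b (-3.79), Luc7l2 (-3.19) and Srsf3 (-0.84) were called lower. Srsf3 was no longer called without input column 1 (-0.83) or 2 (-0.81). In cholesterol synthesis, Fdft1 (1.53), Pmvk (1.23, or 1.05 and not called without input column 2) and Fdps (1.18) were called higher (none under TMM over all genes), and Msmo1 (-4.83) and the pathway's transcription factor Srebf2 (-2.79) lower, so genes of 1 pathway lay in both modes of the distribution.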
